A study of Mus musculus with 6 samples.

Results

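Expression of 9 genes of the complement system was examined in the colon of Islr knockout and control mice: C1qa, C1qb, C1qc, C2, C3, C4b, Cfb, C3ar1 and C5ar1. They were taken by name, with every array probe whose RefSeq accession belongs to 1 of these genes, which gave 12 of the 56605 probes on the array and 9 of the 23462 genes that could be named. The Islr protein is secreted and carries leucine-rich repeats and an immunoglobulin-like domain. Each of 6 male mice, 3 labelled control and 3 labelled Islr knockout, contributed 1 single-colour Agilent array of colon RNA. Per the sample source, all 6 animals had drunk 3.5% dextran sulfate sodium (a sulfated polysaccharide used to injure colon epithelium) for 5 days and had then recovered for 1 day. Their treatment field reads as if none was given, so the colitis course rests on the sample source alone. The labels state no age, strain, deleted region or Cre driver, and the titles call the controls WT. The design text also says that the colon samples were flow separated, without naming a sorted population. All 11 colon epithelium markers, 10 fibroblast markers, 7 endothelial markers and 6 smooth muscle markers examined were well above background on all 6 arrays.

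Complement is a cascade of plasma and tissue proteins that tags microbes and damaged cells and recruits leukocytes to them. In the classical pathway, C1q binds antibody or cell debris and its partner proteases cleave C4 and C2 into the enzyme that activates C3; in the alternative pathway, factor B supplies the protease of a second C3-activating enzyme. The small fragments C3a and C5a act through the G protein-coupled receptors C3ar1 and C5ar1 on myeloid cells. In gut tissue, C1q is made mainly by macrophages, C4 and C3 are made by stromal and epithelial cells as well as by the liver, and C2 and factor B are known as interferon-inducible.

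Values are log2 processed signals relative to the 75th percentile of the same array, so 0 is that percentile, and differences are knockout minus control. Differences were tested in limma over all 35351 testable probes, with a gene called at a Benjamini-Hochberg adjusted p under 0.05. Islr itself, the check of the genotype labels, was at 1.57, 1.24 and 1.21 in control replicates 1, 2 and 3 and at -1.40, -0.93 and -1.31 in knockout replicates 1, 2 and 3 (probe A_51_P140742). Every knockout lay below every control, and the difference was -2.44 (SE 0.21, limma adjusted p 0.0171), with the outlier spot of control replicate 1 left out. The array's 75th percentile of signal was 4910.5 to 7110.5 intensity units, lowest in knockout replicate 1. That array also had the largest share of outlier spots, 16.0% against 3.26% to 13.6% on the others, so values without it are given below. Slide row and genotype cannot be told apart, since the control arrays shared 1 row of the slide and the knockout arrays the other row. In bulk RNA, fewer cells of a type and less RNA per cell cannot be told apart either.

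Of the 9 genes, 8 were lower and 1 (C2) was higher in the knockout by the brightest tested probe of each gene. Of the 12 probes, 1 was called, against 3.97% of all probes tested in either direction and 2.42% called lower. One gene, C4b, passed the threshold at any probe, and it did so at 1 of its 2 probes; 5.00% of all named genes were called in either direction in this way and 3.20% were called lower. By brightest probe alone, 0 of the 9 were called in limma, against 2.47% of named genes called lower, and 5 of 9 had an unadjusted p under 0.05 with a lower value, against 14.5% of named genes. The median difference of the 9 genes was -0.61, with a range of -1.96 to 0.21, where the median of all named genes was 0.014. Of the 7 genes measured without outlier spots on all 6 arrays, 5 had all knockouts below all controls, which held for 19.4% of the named genes so measured. C1qa, C1qb, C4b, C3ar1 and C5ar1 made up those 5. Each of the 12 probes exceeded background clearly on all 6 arrays and was tested, so none of the 9 genes was lost to the filter on dim probes.

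**Figure D1:**
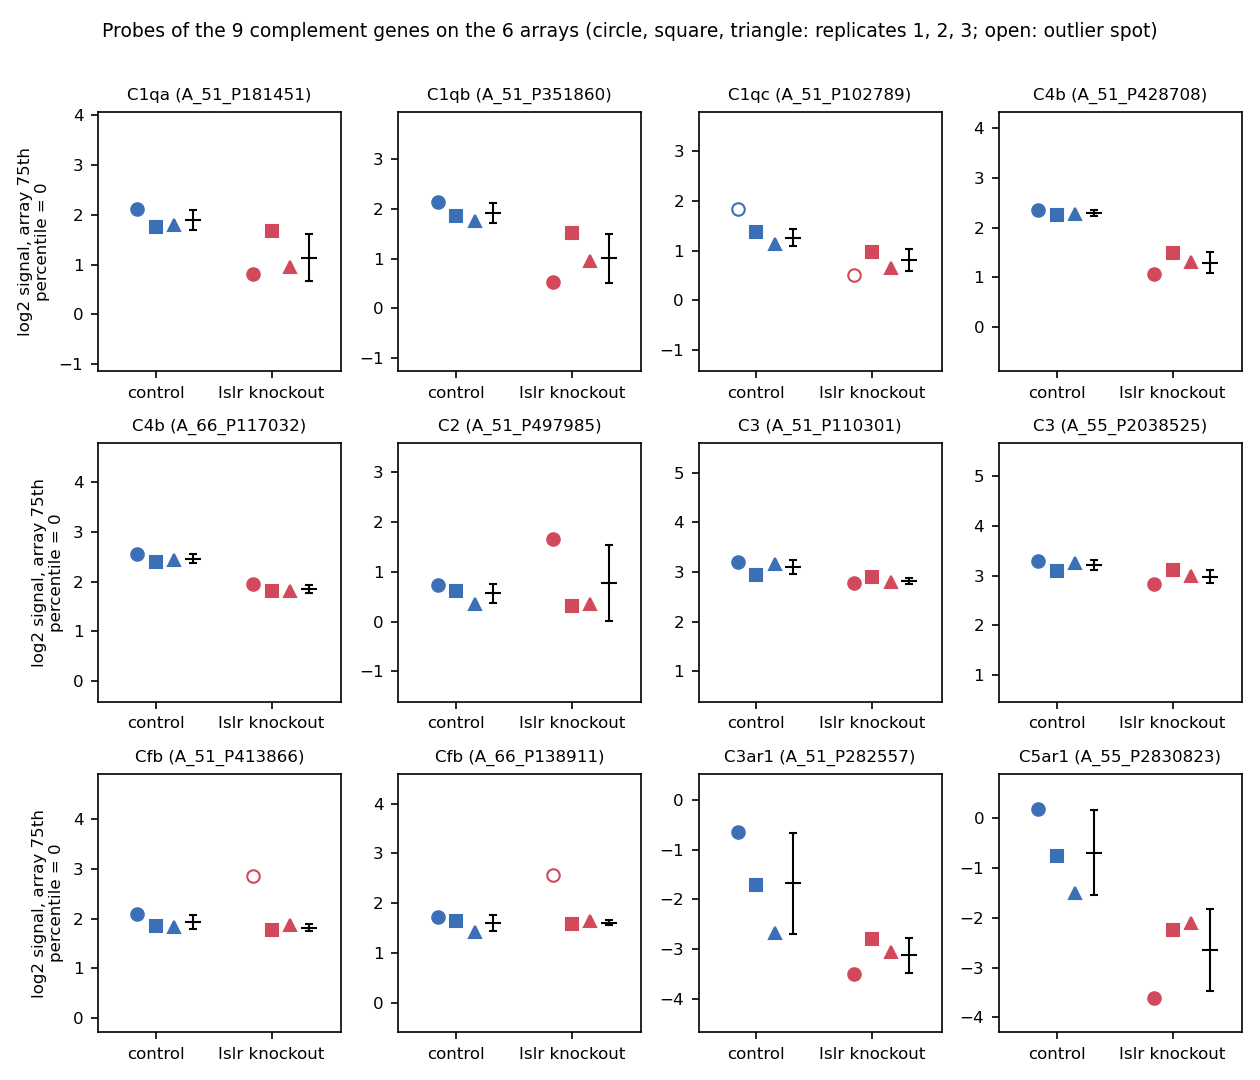
Log2 signal of each of the 12 probes of the 9 complement genes (y axis, array 75th percentile at 0) in 3 control arrays (blue) and 3 Islr knockout arrays (red), with circle, square and triangle for replicates 1, 2 and 3 and an open symbol for an outlier spot. Black bars give the mean ± SD of the values that were tested; every panel spans the same number of log2 units, and both C4b probes separate the groups whereas C2 and both Cfb probes do not.

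The C1q chains, which form the recognition molecule of the classical pathway, were lower in all 3 knockouts, at less than the threshold. C1qa (A_51_P181451), the A chain, was at 2.12, 1.75 and 1.80 in control replicates 1, 2 and 3 and at 0.80, 1.68 and 0.94 in knockout replicates 1, 2 and 3. Knockout replicate 2 came close to the lowest control, and the other knockouts lay well below all controls. Control arrays averaged 1.89 ± 0.20 and knockout arrays 1.14 ± 0.47 (SD, n = 3 each), a difference of -0.75 (SE 0.26, limma adjusted p 0.134).

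C1qb (A_51_P351860), the B chain, was at 2.15, 1.85 and 1.75 in the controls and at 0.54, 1.52 and 0.96 in the knockouts, in the same order of replicates. Knockout replicate 1 was again the lowest array and replicate 2 again the nearest to the controls. The difference was -0.91 (SE 0.27, limma adjusted p 0.0975), a signal 1.88-fold lower. C1qc (A_51_P102789), the C chain, was at 1.85, 1.39 and 1.14 in the controls and at 0.52, 0.97 and 0.65 in the knockouts. Its groups did not overlap, but the spots of replicate 1 of both groups were outlier spots and did not enter the fit. On the remaining arrays (n = 2 each) the difference was -0.45 (SE 0.23, limma adjusted p 0.292), and with the outlier spots kept it was -0.75 (limma adjusted p 0.101).

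The C1q chains had similar profiles across arrays. Their mean was 2.04, 1.66 and 1.56 in the controls and 0.62, 1.39 and 0.85 in the knockouts, so the spread among the 3 knockouts was larger than that among the 3 controls. Without knockout replicate 1 the difference was -0.58 for C1qa (limma adjusted p 0.284), -0.67 for C1qb (0.189) and -0.45 for C1qc (0.307). In the RefSeq annotation the C1q genes lie next to each other on chromosome 4 in the order C1qb, C1qc, C1qa, with no other gene between them.

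Since C1qb and C1qc are neighbours with a shared profile over the arrays, the 250 bases before their transcription starts are shown, from RefSeq's GRCm38.p6 annotation, 5′ to 3′ on the gene's own strand. The C1qb window is chr4:136886201-136886450 and the C1qc window is chr4:136892915-136893164, both on the minus strand. Capitals mark matches to GAGGAA, a core recognised by the myeloid factor PU.1 and other ETS proteins, and, at the second capital run of C1qc, a match to the NF-kappaB motif.
C1qb: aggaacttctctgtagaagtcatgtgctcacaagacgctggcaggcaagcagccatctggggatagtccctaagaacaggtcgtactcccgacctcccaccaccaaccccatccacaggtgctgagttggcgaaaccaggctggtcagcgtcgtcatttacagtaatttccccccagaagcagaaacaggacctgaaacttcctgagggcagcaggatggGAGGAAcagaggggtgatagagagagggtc
C1qc: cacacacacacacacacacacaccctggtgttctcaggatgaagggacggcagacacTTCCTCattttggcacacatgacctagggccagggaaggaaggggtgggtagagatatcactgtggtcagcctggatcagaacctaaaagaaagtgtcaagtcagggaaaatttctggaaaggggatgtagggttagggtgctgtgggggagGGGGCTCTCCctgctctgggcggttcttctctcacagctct
The match in C1qb, GAGGAA, begins 30 bases before the start, and that in C1qc, TTCCTC, is the same core on the opposite strand and begins 193 bases before it. The NF-kappaB match of C1qc begins 41 bases before the start. Both strands were searched in each window for GAGGAA, TTGCNNAA (C/EBP), TTCNNNGAA (STAT), the interferon-stimulated response element and the NF-kappaB motif, overlaps between motifs allowed. Over 32851 RefSeq promoters of this length, GAGGAA was found in 23.3%, TTGCNNAA in 9.56%, TTCNNNGAA in 7.02%, the interferon-stimulated response element in 2.98% and the NF-kappaB motif in 3.9%. A match is a description of the letters and not evidence of binding.

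C4b encodes complement C4, which C1s cleaves and which then anchors the classical C3 convertase to its target. C4b was lower in every knockout at both of its probes, and it fell at 1 of them. At A_51_P428708 it was at 2.36, 2.25 and 2.28 in control replicates 1, 2 and 3 and at 1.08, 1.50 and 1.31 in the knockouts, so the control arrays were tightly grouped and every knockout lay clearly below them. The means were 2.30 ± 0.059 and 1.30 ± 0.21 (SD, n = 3 each), and C4b fell by 1.00 on the log2 scale (SE 0.16, limma adjusted p 0.0362). At the brighter probe, A_66_P117032, C4b was at 2.56, 2.39 and 2.44 in the controls and at 1.94, 1.81 and 1.81 in the knockouts. The groups were again apart, with a difference of -0.61 (SE 0.14, limma adjusted p 0.0626), short of the threshold.

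The call of C4b at A_51_P428708 was not kept with every array left out. It held without control replicate 1 (limma adjusted p 0.0464) or knockout replicate 2 (0.0445) and lost when control replicate 2 (0.111) or 3 (0.101) or knockout replicate 1 (0.0689) or 3 (0.0977) was left out, with differences of -1.10 to -0.89. The mouse genome holds a near-identical gene, C4a, and probes for either may bind transcripts of both. The probe named C4a (A_55_P2745402) was at -0.73, -0.93 and -0.94 in the controls and at -2.13, -1.61 and -1.85 in the knockouts. Every knockout was below every control there too, and C4a fell by 0.99 (SE 0.18, limma adjusted p 0.0436).

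C2 encodes the serine protease that joins C4b in the classical convertase. C2 (A_51_P497985) was at 0.73, 0.62 and 0.34 in control replicates 1, 2 and 3 and at 1.65, 0.32 and 0.34 in the knockouts. One array, knockout replicate 1, stood high, and the other knockouts lay at or just below the lowest control. The means were 0.56 ± 0.20 and 0.77 ± 0.76 (SD, n = 3 each), with a difference of 0.21 (SE 0.38, limma adjusted p 0.756); without knockout replicate 1 it was -0.23 (limma adjusted p 0.485).

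Cfb encodes factor B, the protease of the alternative convertase, and its gene lies beside C2, with the microRNA gene Mir6972 alone between them in the annotation. Its pattern over the arrays was that of C2. At the brighter probe, A_51_P413866, Cfb was at 2.09, 1.85 and 1.83 in the controls and at 2.85, 1.77 and 1.87 in the knockouts. At A_66_P138911 it was at 1.73, 1.64 and 1.43 in the controls and at 2.57, 1.57 and 1.64 in the knockouts. Knockout replicate 1 was the highest array at both probes, and the other knockouts lay among the controls or just below the lowest. That array's spots were outlier spots at both probes. Without them (n = 3 and 2) the differences were -0.10 (SE 0.18, limma adjusted p 0.75) and 0.0082 (SE 0.18, limma adjusted p 0.982), and with them they were 0.24 and 0.33 (limma adjusted p 0.641 and 0.498).

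C4b, C2 and Cfb all act in convertases, and C4b was compared with C2 within each array. The log2 signal of C4b (A_51_P428708) minus that of C2 on the same array averaged 1.73 ± 0.18 over controls and 0.52 ± 0.96 over knockouts (SD, n = 3 each). The contrast differed by -1.21 in the knockouts, and each knockout lay below each control. By array it was 1.63, 1.63 and 1.94 in the controls and -0.58, 1.18 and 0.97 in the knockouts. Knockout replicate 1 thus lay far below the other knockouts and weighed most in the difference. An exact two-sided permutation test gave p = 0.1, the smallest value that 3 against 3 arrays can give, for this contrast and for that of the other C4b probe with C2 (adjusted p 0.1 each, over 4 contrasts). The 2 contrasts with Cfb took in the outlier spot of knockout replicate 1 and are not given. The contrasts were chosen after the values had been seen.

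Genes known to be induced by interferon or to serve antigen presentation were also highest on knockout replicate 1. That array was the highest of the 6 for 16 of 19 such genes (84.2%), against 32.1% of 18317 named genes; it was also the highest for 11 of 11 colon epithelium markers and for 5 of 6 smooth muscle markers. The interferon and antigen presentation list's mean was 1.23, 1.37 and 1.29 in the controls and 2.07, 1.62 and 1.49 in the knockouts. Of 15 tested genes of this list, 14 were higher and 1 was lower in the knockout, with a median difference of 0.38. By brightest probe 0 of the 15 were called in limma and 6 were higher at an unadjusted p under 0.05, against 13.7% of named genes. Irf7, an interferon regulatory factor, rose by 1.97 at its dimmer probe (A_51_P421876; SE 0.29, limma adjusted p 0.0455, n = 2 each), against 1.81% of named genes called higher at any probe. The call was lost with outlier spots kept, at a difference of 1.80 (limma adjusted p 0.0534), and the brighter probe had 0.74 (limma adjusted p 0.0977). Irf1 had a difference of 0.85 (SE 0.23, limma adjusted p 0.0803). Whether these genes had a part in the values of C2 and Cfb was not tested.

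**Figure D2:**
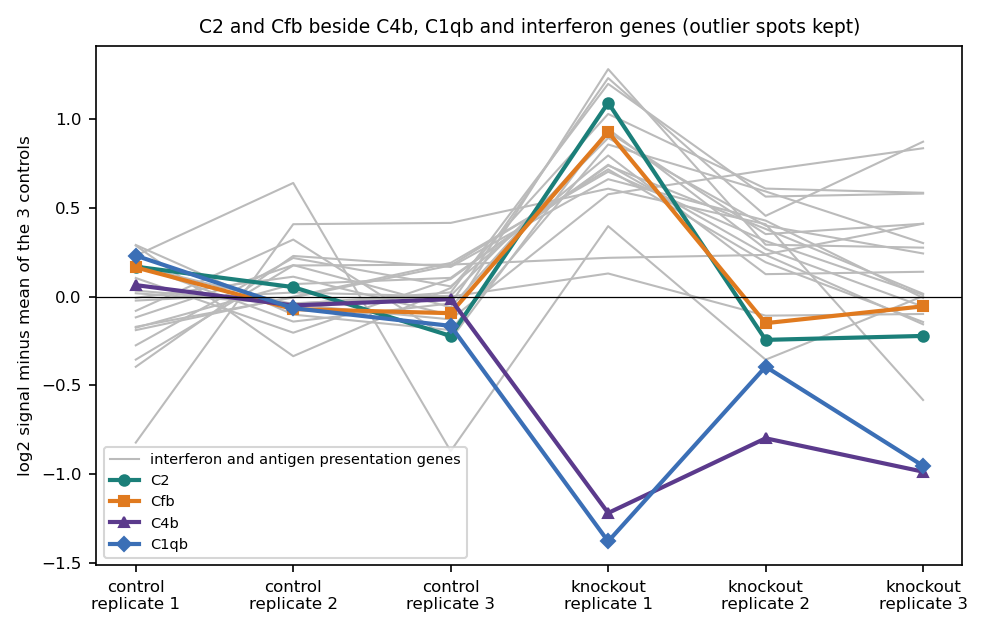
Log2 signal of C2, Cfb (A_51_P413866), C4b (A_51_P428708) and C1qb on each of the 6 arrays, minus the mean of the 3 controls (y axis, outlier spots kept), with 19 interferon-induced and antigen presentation genes in grey. Lines join the values of 1 gene and give the arrays no order; on knockout replicate 1, C2 and Cfb lie above 0 with most grey lines while C4b and C1qb lie below it.

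C3, the central component whose cleavage all pathways share, was slightly lower in the knockout at both probes, short of the threshold. At A_51_P110301 it was at 3.21, 2.94 and 3.16 in control replicates 1, 2 and 3 and at 2.78, 2.89 and 2.79 in the knockouts. The knockouts lay just under the lowest control, with means of 3.10 ± 0.145 and 2.82 ± 0.062 (SD, n = 3 each) and a difference of -0.28 (SE 0.15, limma adjusted p 0.276). At A_55_P2038525, the brighter probe, it was at 3.29, 3.09 and 3.26 in the controls and at 2.83, 3.11 and 3.00 in the knockouts. Knockout replicate 2 was above the lowest control there, and the difference was -0.23 (SE 0.15, limma adjusted p 0.368). Signals of C3 ran from 33624 to 62565 intensity units over both probes, and no spot was saturated on any array.

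C3 is an acute phase gene with known C/EBP control, so the 250 bases before its start are shown (RefSeq GRCm38.p6, chr17:57228137-57228386, minus strand, 5′ to 3′), with a match to TTGCNNAA in capitals.
C3: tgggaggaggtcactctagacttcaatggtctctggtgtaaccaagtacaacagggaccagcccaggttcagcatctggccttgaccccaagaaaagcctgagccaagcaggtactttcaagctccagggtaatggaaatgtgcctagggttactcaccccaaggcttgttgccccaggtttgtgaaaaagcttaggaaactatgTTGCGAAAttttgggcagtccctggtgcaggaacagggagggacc
The match, TTGCGAAA, begins 45 bases before the start. The windows of C3ar1 and C5ar1 held no match to any of the motifs searched, which says only that these letters are not there.

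Among 18 tested acute phase and interleukin-6 family genes, 15 were lower and 3 higher in the knockout, with a median difference of -0.63. By brightest probe 2 were called, both lower, against the 2.47% of all named genes. Osm, a cytokine of myeloid cells in the interleukin-6 family, fell by 2.45 (SE 0.37, limma adjusted p 0.0319), and Lcn2, the iron-sequestering protein lipocalin, fell by 1.82 (SE 0.26, limma adjusted p 0.0302). Il6st, the shared receptor subunit of this family, fell by 1.31 at its dimmer probe (A_55_P2917440; limma adjusted p 0.0338) and had a difference of -0.63 at its brighter one (limma adjusted p 0.0884). Il6 had a difference of -4.05 (SE 0.99, limma adjusted p 0.0671), at a probe well above background on 2 of the 3 knockouts. Saa3, a serum amyloid gene, could not be tested for outlier spots and had a difference of -1.26 with them kept (limma adjusted p 0.151), whereas Saa1 and Saa2 were on the higher side with 0.55 each (limma adjusted p 0.188 and 0.245).

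The anaphylatoxin receptors had the largest differences of the 9 genes. C5ar1 (A_55_P2830823), the receptor for C5a on neutrophils and macrophages, was at 0.20, -0.76 and -1.50 in control replicates 1, 2 and 3 and at -3.60, -2.24 and -2.10 in the knockouts. Every knockout was below every control, although each group spanned more than 1 log2 unit. The means were -0.69 ± 0.85 and -2.65 ± 0.83 (SD, n = 3 each), a difference of -1.96 (SE 0.55, limma adjusted p 0.0858), or a 3.90-fold lower signal.

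C3ar1 (A_51_P282557), the receptor for C3a, was at -0.64, -1.72 and -2.67 in the controls and at -3.50, -2.80 and -3.06 in the knockouts. The highest knockout lay just below the lowest control, and the controls were the more widely spread group. The means were -1.68 ± 1.01 and -3.12 ± 0.36 (SD, n = 3 each), with a difference of -1.45 (SE 0.50, limma adjusted p 0.127). Without knockout replicate 1 the differences were -1.48 for C5ar1 (limma adjusted p 0.175) and -1.26 for C3ar1 (0.282). Without control replicate 1, the highest array for both, they were -1.52 (0.120) and -0.93 (0.15). With array weights C5ar1 had a limma adjusted p of 0.0329 at a difference of -1.45.

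The other complement genes did not share a direction. Of 46 listed, 45 had a named probe and 36 were tested, 17 of them lower and 19 higher in the knockout, with a median difference of 0.13. By brightest probe 2 were called lower (C1rb and C4a) and 1 higher (Fcna), against 2.47% and 1.35% of all named genes.

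**Figure D3:**
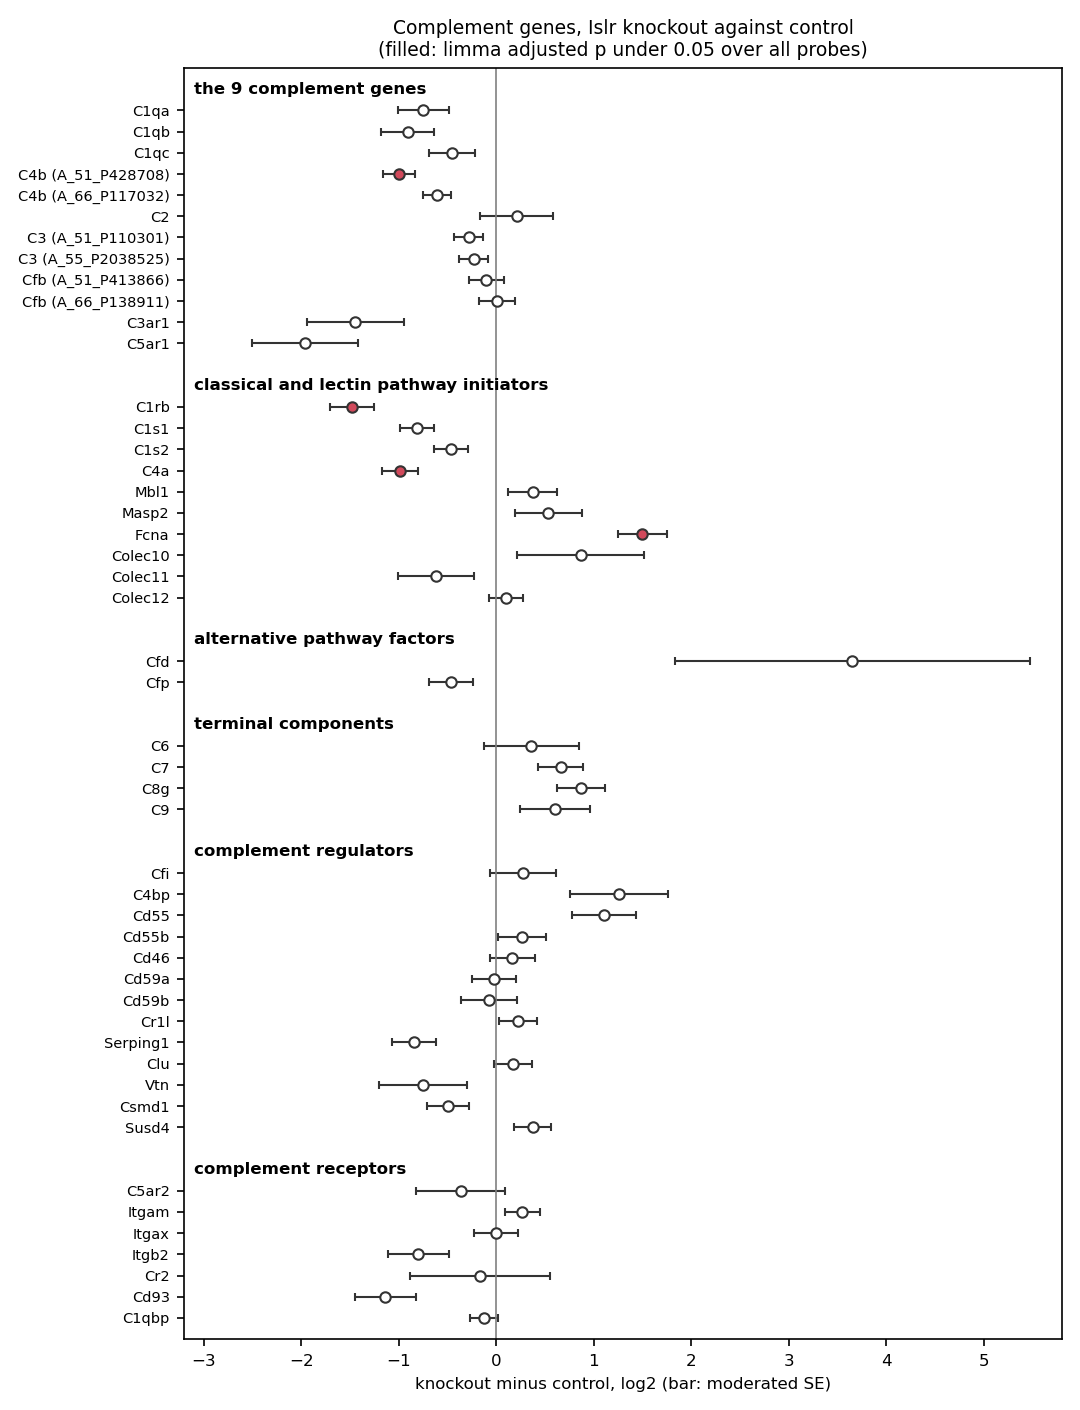
Difference in log2 signal, Islr knockout minus control (x axis), for the 12 probes of the 9 complement genes at the top and, below, for the other tested complement genes by their brightest tested probe, grouped by role. Bars are moderated standard errors and filled points have a limma adjusted p under 0.05; C4b at 1 probe, C1rb and C4a are filled on the lower side and Fcna on the higher.

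Among the proteases that C1q carries, C1rb fell by 1.48 at both of its probes (A_52_P114260 and A_66_P123318; SE 0.23 each, limma adjusted p 0.0321 and 0.0338). At the first it averaged -1.16 ± 0.19 over controls and -2.65 ± 0.36 over knockouts (SD, n = 3 each), with no overlap. C1s1, the protease that cleaves C4, had a difference of -0.81 (SE 0.17, limma adjusted p 0.0534). C1ra was at 2.49, 2.33 and 2.59 in the controls and at 1.74, 1.90 and 1.87 in the knockouts, but outlier spots kept it out of the fit. Its groups were apart, with a difference of -0.64 when those spots were kept (limma adjusted p 0.0612). C1ra and C1rb are near-identical copies, as are C1s1 and C1s2, and their probes may share transcripts. The calls of C1rb and C4a were lost without knockout replicate 1 (limma adjusted p 0.0630 and 0.0808), without control replicate 2 (0.0961 and 0.125), without control replicate 3 (0.0825 and 0.110) and without knockout replicate 3 (0.0867 and 0.111), and that of C4a also without control replicate 1 (0.0569).

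Fcna encodes ficolin A, a sugar-binding starter of the lectin pathway. It was at -1.46, -3.98 and -4.59 in the controls and at -2.59, -2.84 and -2.92 in the knockouts. Control replicate 1, the highest array, was an outlier spot: without it Fcna rose by 1.50 (SE 0.25, limma adjusted p 0.0432, n = 2 and 3), and with it the groups overlapped and the difference was 0.56 (limma adjusted p 0.663). The call was also lost without knockout replicate 1, 2 or 3 (limma adjusted p 0.0942, 0.0658 and 0.09998).

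Cfd, the adipocyte-rich protease that activates factor B, varied widely among animals of each group. It was at 3.22, -3.47 and -4.48 in the controls and at -4.14, 1.79 and 1.38 in the knockouts. Arrays of each group were high and low, and the difference was 3.65 without the outlier spot of control replicate 1 (SE 1.82, limma adjusted p 0.263) and 1.25 with it (0.762). With knockout replicate 1 and that spot both absent it was 5.56 (limma adjusted p 0.0384, n = 2 each). That fit lacked the highest control and the lowest knockout. Without knockout replicate 2 or 3 the difference was 2.59 or 2.80 (limma adjusted p 0.414 and 0.467), and with array weights it was 4.68 (0.0291). Cfp, properdin, which stabilises the alternative convertase, had a difference of -0.46 at its brighter probe (limma adjusted p 0.241) and of -1.06 at its dimmer one (limma adjusted p 0.0888), where every knockout was below every control.

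All 4 tested terminal components, which build the membrane attack complex, were higher in the knockout, by 0.36 to 0.87. In limma 0 were called, and 2 were higher at an unadjusted p under 0.05, against 13.7% of named genes. The largest difference was that of C8g (SE 0.25, limma adjusted p 0.0903). Hc, which encodes C5, and C8a and C8b were not well above background on any array.

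Of 13 tested regulators 5 were lower and 8 higher, with 0 called in limma. At an unadjusted p under 0.05, 1 was lower and 2 were higher, against 14.5% and 13.7% of named genes. Serping1, the inhibitor of C1r and C1s, was at 2.28, 2.10 and 2.004 in the controls and at 0.86, 1.58 and 1.41 in the knockouts, with no overlap. Its difference was -0.84 (SE 0.22, limma adjusted p 0.0774). Cd55, which dissociates convertases on cell surfaces, had a difference of 1.101 (SE 0.33, limma adjusted p 0.122, n = 2 each); with outlier spots kept its groups overlapped and it was 0.66 (limma adjusted p 0.243). C4bp, a cofactor for C4b cleavage, had a difference of 1.26 (SE 0.50, limma adjusted p 0.169).

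Of 7 tested receptors and C1q-binding proteins, 6 were lower and 1 higher, with 0 called in limma. At an unadjusted p under 0.05, 2 were lower, against 14.5% of named genes. Cd93, a surface protein of endothelium and myeloid cells once described as a C1q receptor, was at 2.29, 2.20 and 2.17 in the controls and at 0.35, 1.49 and 1.40 in the knockouts. All knockouts were below all controls, with a difference of -1.14 (SE 0.31, limma adjusted p 0.0841). Itgam, a chain of complement receptor 3, had a difference of 0.27 at its brighter probe (limma adjusted p 0.378). At its dimmer probe it had -0.0175 (limma adjusted p 0.977). Itgb2, also on this list, had a difference of -0.80 (SE 0.31, limma adjusted p 0.161), with overlapping groups.

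Markers of the cells that carry or make these genes differed between the same arrays. Of 14 macrophage markers, 13 were well above background on all arrays and 11 were tested, 10 lower and 1 higher, with a median difference of -0.88. By brightest probe 0 were called in limma, and 6 were lower at an unadjusted p under 0.05, against 14.5% of named genes. The mean level of the macrophage markers was -0.45 to 0.53 in controls and -1.05 to -0.65 in knockouts, so the ranges did not overlap. Adgre1, which encodes F4/80, had a difference of -0.96 (SE 0.27, limma adjusted p 0.109, n = 2 each), or -1.57 with outlier spots kept (limma adjusted p 0.066). The lysosomal protein gene Cd68 had -0.88 (SE 0.27, limma adjusted p 0.0982). Csf1r, the receptor that macrophages need to survive, had -0.37 at its brighter probe and 0.24 at its dimmer one (limma adjusted p 0.296 and 0.339). Mertk, a receptor for dying cells, had 0.12 with its outlier spots kept (limma adjusted p 0.886).

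Among 10 tested neutrophil markers, 7 were lower and 3 higher, with a median difference of -2.40. By brightest probe 7 were called lower and 1 higher, against 2.47% and 1.35% of all named genes. The mean level of the neutrophil markers was -0.58 to -0.43 in controls and -2.56 to -1.94 in knockouts, and Ngp was not well above background on any array. S100a8, a calcium-binding protein of neutrophils, fell by 3.92 (SE 0.53, limma adjusted p 0.0327), and S100a9, Cxcr2, Mmp8, Retnlg, Camp and Mmp9 were called lower with differences of -4.47 to -1.20, with Mmp8 and Mmp9 well above background on 2 of the 3 knockouts. Ltf, lactoferrin, rose by 3.66 (SE 0.45, limma adjusted p 0.0299). Csf3r had a difference of 0.17 and Trem1 of 0.18 at its brighter probe (limma adjusted p 0.483 and 0.494). At its dimmer probe, well above background on 2 of the 3 knockouts, Trem1 had -3.07 (limma adjusted p 0.119). Of 6 tested inflammatory monocyte markers, 4 were lower and 2 higher, with a median difference of -0.38. By brightest probe 1 was called, on the lower side, against 2.47% of named genes. Chil3 fell by 3.40 (SE 0.44, limma adjusted p 0.0260), and Vcan, versican, fell by 2.34 at A_55_P1960208, a dimmer probe (SE 0.33, limma adjusted p 0.0298). Ly6c2, a surface protein of inflammatory monocytes, was higher in every knockout, with a difference of 0.49 (SE 0.18, limma adjusted p 0.141).

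All 9 tested fibroblast markers were lower, with a median difference of -0.63; their mean was 2.17 to 2.36 in controls and 1.19 to 1.85 in knockouts. Pdgfrb, a receptor of fibroblasts and pericytes, fell by 1.17 (SE 0.20, limma adjusted p 0.0395) and was the 1 marker called, against 2.47% of named genes called lower; 5 were lower at an unadjusted p under 0.05, against 14.5%. At its only tested probe, A_55_P2734892, Pdgfra had a difference of -0.63 (limma adjusted p 0.128). That probe was dim and well above background on 2 of the 3 knockouts. Outlier spots kept A_51_P345649 and A_55_P2735715, both brighter, out of the fit. With those spots kept the differences were -1.13 and -1.03 (limma adjusted p 0.12 and 0.175). All 6 tested endothelial markers were lower, with a median of -1.26. Of these, 0 were called in limma and 5 had an unadjusted p under 0.05, against 14.5% of named genes. All 9 tested colon epithelium markers were higher, with a median of 1.16. In limma 0 of them were called, and 2 had an unadjusted p under 0.05, against 13.7% of named genes higher. The mean of the epithelium markers was 0.66 to 2.62 in controls and 2.97 to 3.36 in knockouts. Epcam could not be tested for outlier spots and had 0.91 with them kept (limma adjusted p 0.146). The part of these cell types in the complement values was not tested.

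**Figure D4:**
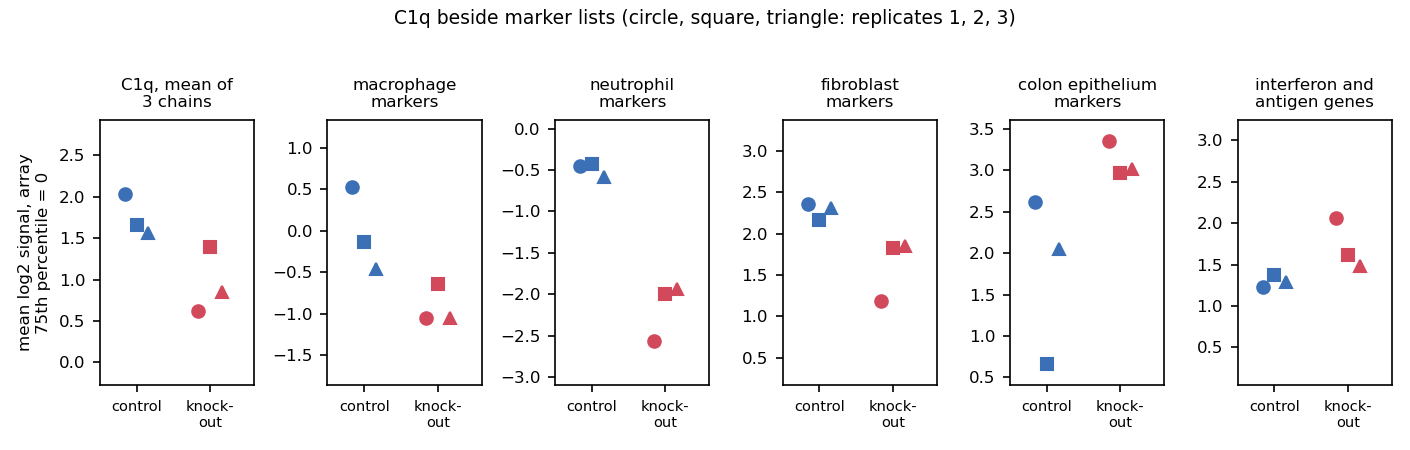
Mean log2 signal per array (y axis, array 75th percentile at 0, outlier spots kept) of the C1q chains and of lists of macrophage, neutrophil, fibroblast, colon epithelium and interferon genes, in 3 controls (blue) and 3 Islr knockouts (red), with circle, square and triangle for replicates 1, 2 and 3. Each panel spans the same number of log2 units; the C1q, macrophage, neutrophil and fibroblast means of all knockouts lie below those of all controls, and the epithelium and interferon means above.

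Genes whose signal ran most parallel to each complement gene over the 6 arrays were found among 12559 genes measured on all arrays; with so few points and so many genes these correlations are a description. The C1q mean, with the outlier spots of C1qc kept, ran closest to Ebi3, a subunit of interleukin-27 and interleukin-35 (Pearson r 0.995). Uck1 and Qsox2 followed (0.993 each). C4b (A_66_P117032) ran closest to Rnf26 (0.998), Pros1 (0.995) and Rnf2 (0.994). Pros1, which encodes the anticoagulant protein S, fell by 0.74 (limma adjusted p 0.0468). Rnf26 and Rnf2 had differences of -0.43 and -0.54 (limma adjusted p 0.108 and 0.0826). C5ar1 ran closest to Dync2li1 (0.995), Ms4a6d and Slc11a1 (0.994 each), the last a metal transporter of macrophage phagosomes. C3ar1 ran closest to Tpd52l1 (0.992), the macrophage lipid receptor gene Trem2 (0.989) and Zfp414 (0.988). Differences in the knockout were -1.85 for Ms4a6d, -1.92 for Slc11a1 and -1.58 for Trem2 (limma adjusted p 0.0707, 0.0707 and 0.0827). Those of Dync2li1, Tpd52l1 and Zfp414 were smaller, at -0.63, -0.46 and -0.27 (limma adjusted p 0.144, 0.219 and 0.363). All these genes were chosen for running parallel to complement genes whose groups did not overlap, so their p-values give no separate support.

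Among the genes that ran closest to C2 were Olfr920 (0.992) and Marchf5 (0.990), with differences of 0.12 and 0.10. Cfb (A_51_P413866), with the outlier spot of knockout replicate 1 kept, ran closest to Tmcc1 (0.995), Eci1 (0.995) and Polr2e (0.993). C3 (A_55_P2038525) ran closest to Mrvi1 (0.992), Fam155a (0.988) and Eva1b (0.984).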

How the data were processed

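The deposited scanner files hold the red channel of single-colour Agilent arrays of design 074809, read with Feature Extraction 11.5.1.1 per the file headers. The submitters' processing notes name version 10.7 and the labels name Cy3. Per the file headers, the deposited processed signal is a linear intensity from which the scanner software had subtracted background, and arrays were not scaled to each other. A value table of the series holds the same intensities as deposited (log2 correlation of at least 0.999999 with the scanner files) and served as an alternative.

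From the intensity, log2 was taken and the array's 75th percentile over non-control spots subtracted. Spots marked non-uniform or as population outliers were set missing in tests but shown in the values per array; spots of a probe were averaged. A probe was tested if all 3 arrays of either group had it well above background, with at least 2 usable values per group. Genotype was tested, two-sided, with limma 3.58.1 (lmFit, eBayes; R 4.3.3), with Benjamini-Hochberg adjustment over 35351 probes. The number of arrays, 3 per group, limits the precision. The limma p-values set the group difference against the spread within groups of these 6 mice, moderated over all tested probes. The test was checked on simulated data, in which both groups had the spread of the controls and probes were independent. That check did not cover the wider spread of the knockouts seen for some genes.

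Probes were named by RefSeq accession in GRCm38.p6 (33767 of 56605 probes, 59.7%). The files' own probe positions are on mm9 and were not used. Promoter sequences come from RefSeq GRCm38.p6; 5 of the 9 genes had one (C1qb, C1qc, C3, C3ar1 and C5ar1). The brightest tested probe stood for a gene in counts over lists. The 9 genes, the lists of complement, cell type, interferon and acute phase genes, and the alternatives were chosen with earlier results of these data known. Named by rule were Islr, the 9 genes at every probe, other complement genes called or differing by at least 1 on the log2 scale, called genes and 12 set genes of the other lists, and the 3 genes most correlated with each complement gene. C1ra, C1s1, C8g, Cfp, Csf3r, Itgam, Itgb2, Ly6c2, Saa1, Saa2, Serping1 and Trem1 were added after their values were seen. Some genes that the rule names are not reported here. Alternatives were normexp (offset 50) with quantile normalization, median centring, outlier spots kept, no filter on dim probes or a stricter one, array weights, the series' value table, the mean over a gene's probes, and leaving out each array in turn.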

Additional observations from a re-analysis of the deposited data

How the results depend on the processing

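All 13 alternatives left C1qa, C1qb, C4b, C3, C3ar1 and C5ar1 lower in the knockout, and the 9 that could be run left C1qc lower. Probes called over the array numbered 1403, against 2773 with normexp and quantile normalization, 2249 with median centring, 484 with no filter on dim probes, 8119 with array weights and 2274 in the series' value table. Leaving out 1 array gave 40 (without knockout replicate 3) to 2114 (without control replicate 1). Of the 9 genes 1 was called, against 0 with no filter on dim probes, 2 with array weights (C4b and C5ar1) and 0 to 1 with an array left out. Other complement genes called numbered 3, against 5 with normexp and quantile normalization, 0 with no filter, 12 with array weights and 0 to 2 with an array left out. The median difference of the 9 genes was -0.61. With an array left out, the median of those genes that could still be tested ran from -1.02 (without knockout replicate 2) to -0.56. Without knockout replicate 2 it lacked C1qc and Cfb, so these medians do not all cover the same genes. C4b at A_51_P428708 was called in 6 of 7 alternatives on all arrays (limma adjusted p 0.0101 to 0.0527), and at A_66_P117032 in 2 of 7 (0.0172 to 0.104).

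Signs turned for C2 with array weights (-0.073) and without knockout replicate 1 (-0.23); with an array left out it ran from -0.23 to 0.43. They turned for Cfb at A_51_P413866 with outlier spots kept (0.24) and in the value table (0.27), and at A_66_P138911 with normexp and quantile normalization (-0.059), with median centring (-0.043) and without control replicate 3 (-0.078, in a range of -0.078 to 0.073 with an array left out). The spots of knockout replicate 1 alone separate the values with and without outlier spots for Cfb; for the other shifts the cause was not tested. C1qc could not be tested without replicate 2 or 3 of either group, nor Cfb without knockout replicate 2 or 3. No paired analysis was possible because the labels give the mice no shared replicate numbers. All 12 probes were clearly above background; the number of arrays limits the precision.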

Other observations

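Cr2, the complement receptor of B cells and follicular dendritic cells that binds C3d, varied more within the groups than between them. It was at -0.66, 1.67 and 1.63 in control replicates 1, 2 and 3 and at 0.40, 1.66 and 0.07 in knockout replicates 1, 2 and 3 (A_55_P1971729), a difference of -0.17 (SE 0.72, limma adjusted p 0.90). The mean of 7 B and plasma cell markers was 0.43, 1.73 and 1.76 in the controls and 0.77, 1.38 and 0.10 in the knockouts, so the arrays with low Cr2 were those with low B cell markers. Of 6 tested B and plasma cell markers, all 6 were lower in the knockout. In limma 0 were called and 0 had an unadjusted p under 0.05, against 14.5% of named genes lower. The 5 tested smooth muscle markers were all higher, with a median difference of 0.36. In limma 0 were called and 1 had an unadjusted p under 0.05, against 13.7% of named genes higher.

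Knockout replicate 1 was the lowest of the 6 arrays for 6 of the 9 complement genes (66.7%), for 9 of 10 fibroblast markers, for all 7 endothelial markers and for 12 of 19 acute phase genes, against 25.3% of named genes. It was the highest array for C2 and Cfb, for all 11 colon epithelium markers, for 5 of 6 smooth muscle markers and for 16 of 19 interferon and antigen presentation genes. Some of the lectin pathway, Mbl2, Masp1 and Fcnb, was not well above background on any array.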
